A study of Mus musculus with 8 samples.

Results

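The 38 genes described here encode plasma proteins of blood clotting and of complement together with inhibitors that restrain both systems. Their rows were taken from the count tables by gene symbol, and all 38 were found among the 24062 gene entries. All livers came from lean wild-type C57BL/6 mice that had received 0.1 OD of adenovirus. The livers were taken after 1 week, when food had been withheld for 6 h. The control lacZ1 and a short hairpin RNA against Dnajb9 (shDnajb9) were given to mice aged 3 months; Dnajb9 is an endoplasmic reticulum co-chaperone. The control lacZ2 and a hairpin against Rictor (shRictor) were given to mice aged 4 months, and Rictor is a defining subunit of mTOR complex 2. Each group had 2 libraries of ribosome-depleted total RNA. The labels do not name the promoter of the hairpins, do not say what lacZ stands for in the control virus, and do not state if both libraries of a group are from different mice. The p-values here therefore reflect library-to-library spread alone, which may be technical.

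Clotting is a cascade of proteases that circulate as inactive zymogens. Tissue factor with F7 starts it at a wound, the contact proteins F12, F11, Klkb1 and Kng1 start it on charged surfaces, and both routes lead through F10 to thrombin (F2), which cuts fibrinogen into fibrin. Complement works in the same way, by proteases that cut one another: the classical, lectin and alternative pathways all cleave C3, and the terminal proteins Hc (the mouse C5), C6, C8 and C9 then assemble into a pore in the target membrane. Hepatocytes secrete most of these proteins, whereas F8 comes largely from the endothelium of the liver sinusoids.

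Counts assigned to genes ranged from 6426164 to 11383532 per library, and the member with the fewest counts in any library, F11, still had 215. Hepatocyte markers, 13 genes such as Hpd and Fah, took 2.84% of gene counts in lacZ2 replicate 1 and between 4.68% and 6.36% in the other 7 libraries, and none was at 0 in any library. The 2 targeted transcripts did not pass the test in their own contrast. Dnajb9 stood at 30.6 and 38 CPM in the lacZ1 libraries, against 22.0 and 20.3 CPM with shDnajb9 (log2 change -0.70, adjusted p = 0.056), and Rictor at 52.3 and 65.2 CPM in the lacZ2 libraries, against 40.1 and 42.0 CPM with shRictor (log2 change -0.52, adjusted p = 0.231). A contrast is therefore named here by the hairpin delivered, without a shown loss of its target. A pair of libraries stood apart for these genes. The library lacZ2 replicate 1 held the lowest value of all 8 for 32 of the 38 members, and shDnajb9 replicate 1 held the highest for 25.

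Many transcripts of clotting and complement proteins were called higher after each hairpin, and none was called lower. The largest change was that of the complement gene C8b in both contrasts, followed by the lectin Mbl1 with shDnajb9 and by Hrg of the contact system with shRictor. Values are read counts brought to a common library size by the trimmed mean of M values (CPM), and a gene was called when its Benjamini-Hochberg adjusted p in edgeR's quasi-likelihood test was under 0.05. In shDnajb9 against lacZ1, 19 of 38 members were called higher, where 11.6% of all 13767 genes tested were. In shRictor against lacZ2, 14 of 38 were called higher, where 7.31% of all genes were. All 14 were among the 19, where 4.16% of all genes were called higher in both. Thus 100% of the members called with shRictor and 73.7% of those called with shDnajb9 were called in both, against 57.0% and 35.9% over all genes. The median log2 fold change of the members was 1.14 with shDnajb9 and 1.06 with shRictor, beside -0.05 and -0.02 over all genes tested. Among the called members it ran from 0.79 to 3.18 and from 0.98 to 2.82.

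Both libraries of shDnajb9 lay above both libraries of lacZ1 for 33 members (32.4% of all genes did so), and the same number did so in the Rictor experiment (28.8% of all genes). The libraries overlapped for F5, Mbl2, C4b and Hc in the Dnajb9 experiment, where C3 alone lay lower in both hairpin libraries (35.1% of all genes did so). In the Rictor experiment they overlapped for F8, Pros1, Mbl2, C3 and C4b. An exact permutation test of 2 libraries against 2 cannot give a p under 0.333, so only the test fitted across all genes is used.

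The counts of called members rested on single libraries, and so did the counts over all genes tested. Leaving out a library also lowered the number of all genes called higher in its own contrast, except for shDnajb9 replicate 2. This includes lacZ2 replicate 2, without which more members were called. Without lacZ1 replicate 1, lacZ1 replicate 2 or shDnajb9 replicate 1, fewer members were called with shDnajb9. Their median log2 fold change was then 1.00, 1.27 and 0.92. Without lacZ2 replicate 1, shRictor replicate 1 or shRictor replicate 2, fewer members were called with shRictor, at medians of 0.73, 1.11 and 1.01. Without lacZ2 replicate 2 the median was 1.56. Over all genes the medians of these fits lay between -0.06 and 0.01. With shDnajb9, F7, Mbl1 and C8b were called under each of 20 alternative analyses, and with shRictor Hrg, C8a and C8b were. Every called member stayed positive in all 20. With libraries scaled by total gene count alone, the median of all genes moved to -0.46 and -0.42, that of the members was 0.68 and 0.67, and 13 and 10 members were called. The members then lay 1.15 and 1.10 above the median of all genes, against 1.18 and 1.07 with the main scaling. Over all genes the same change moved the calls from 1597 higher and 1728 lower to 610 and 3354 with shDnajb9, and from 1006 and 1502 to 436 and 2810 with shRictor.

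**Figure D1:**
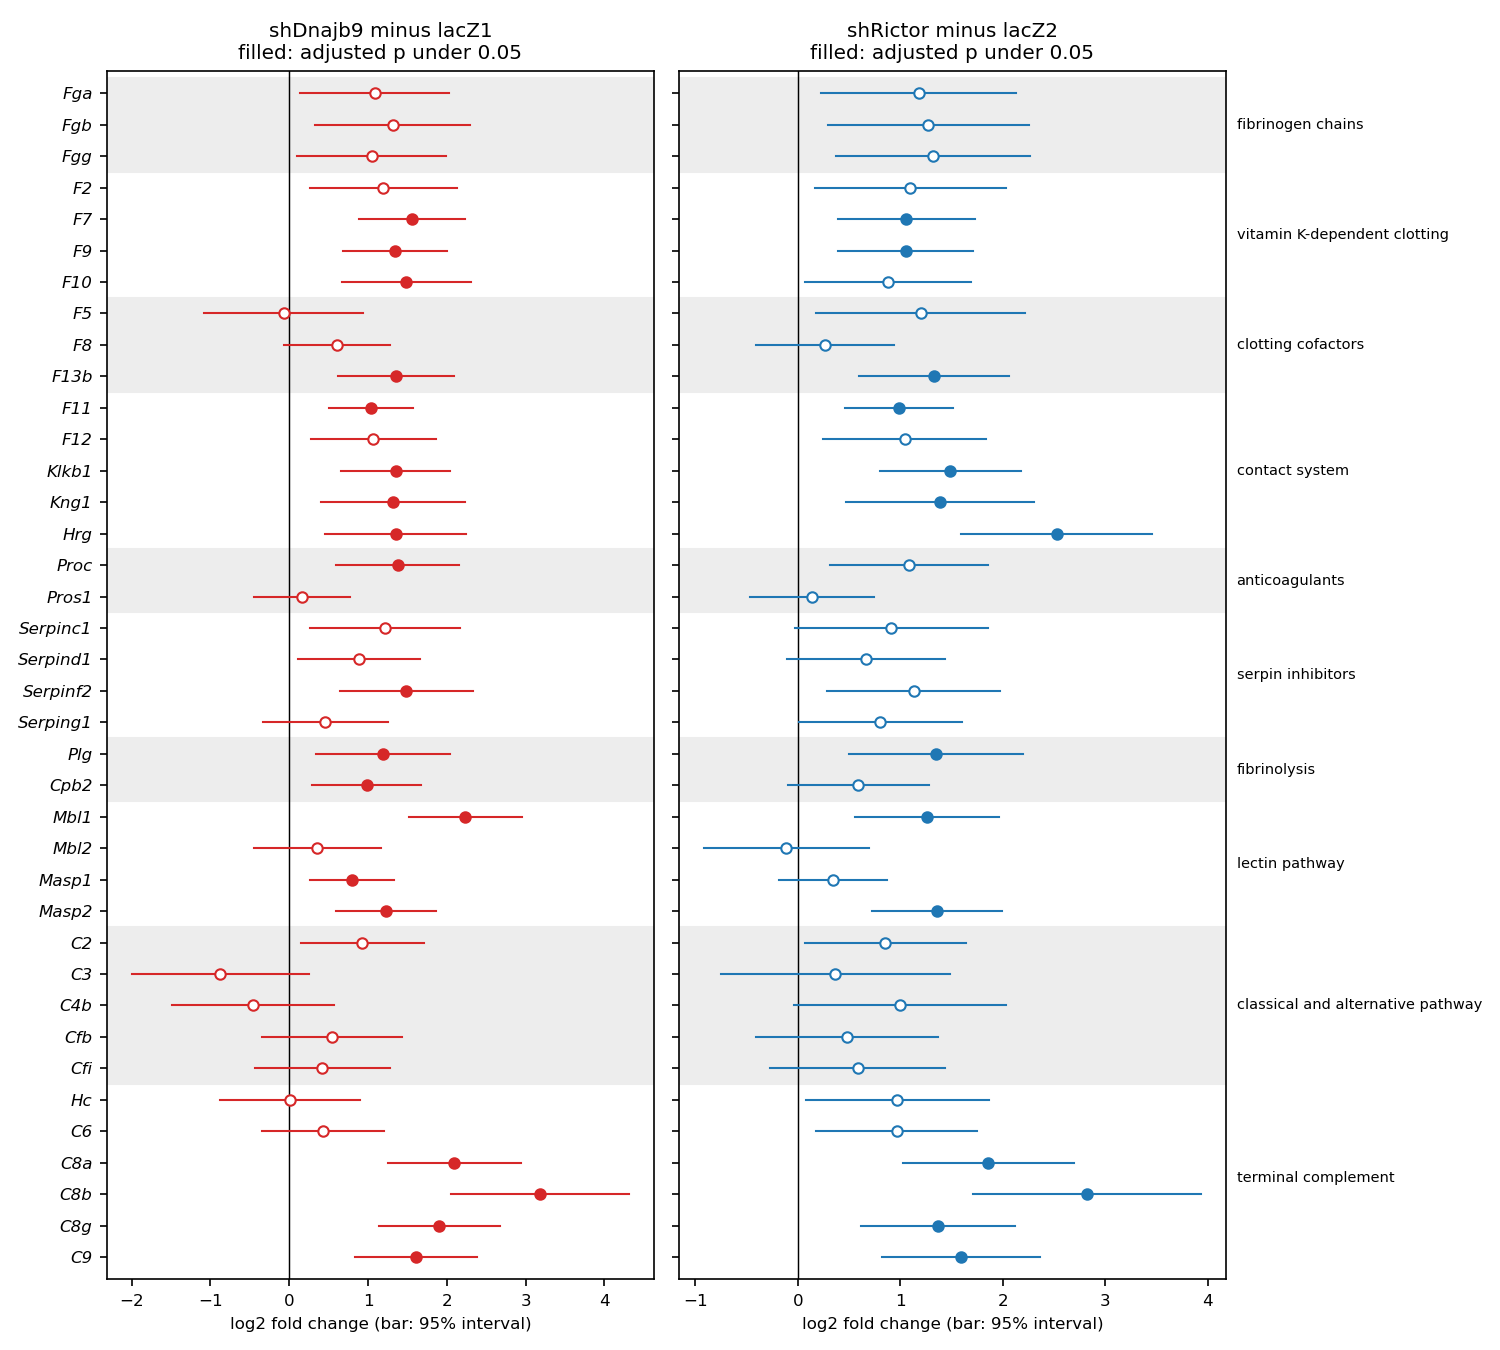
Log2 fold change of each of the 38 genes in shDnajb9 minus lacZ1 (left) and shRictor minus lacZ2 (right), with its 95% interval from edgeR; filled points have an adjusted p under 0.05, and bands group the genes by role. Most points lie right of 0, with C8b the highest on the left at 3.18 and on the right at 2.82, and C3 the lowest on the left at -0.87.

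**Figure D2:**
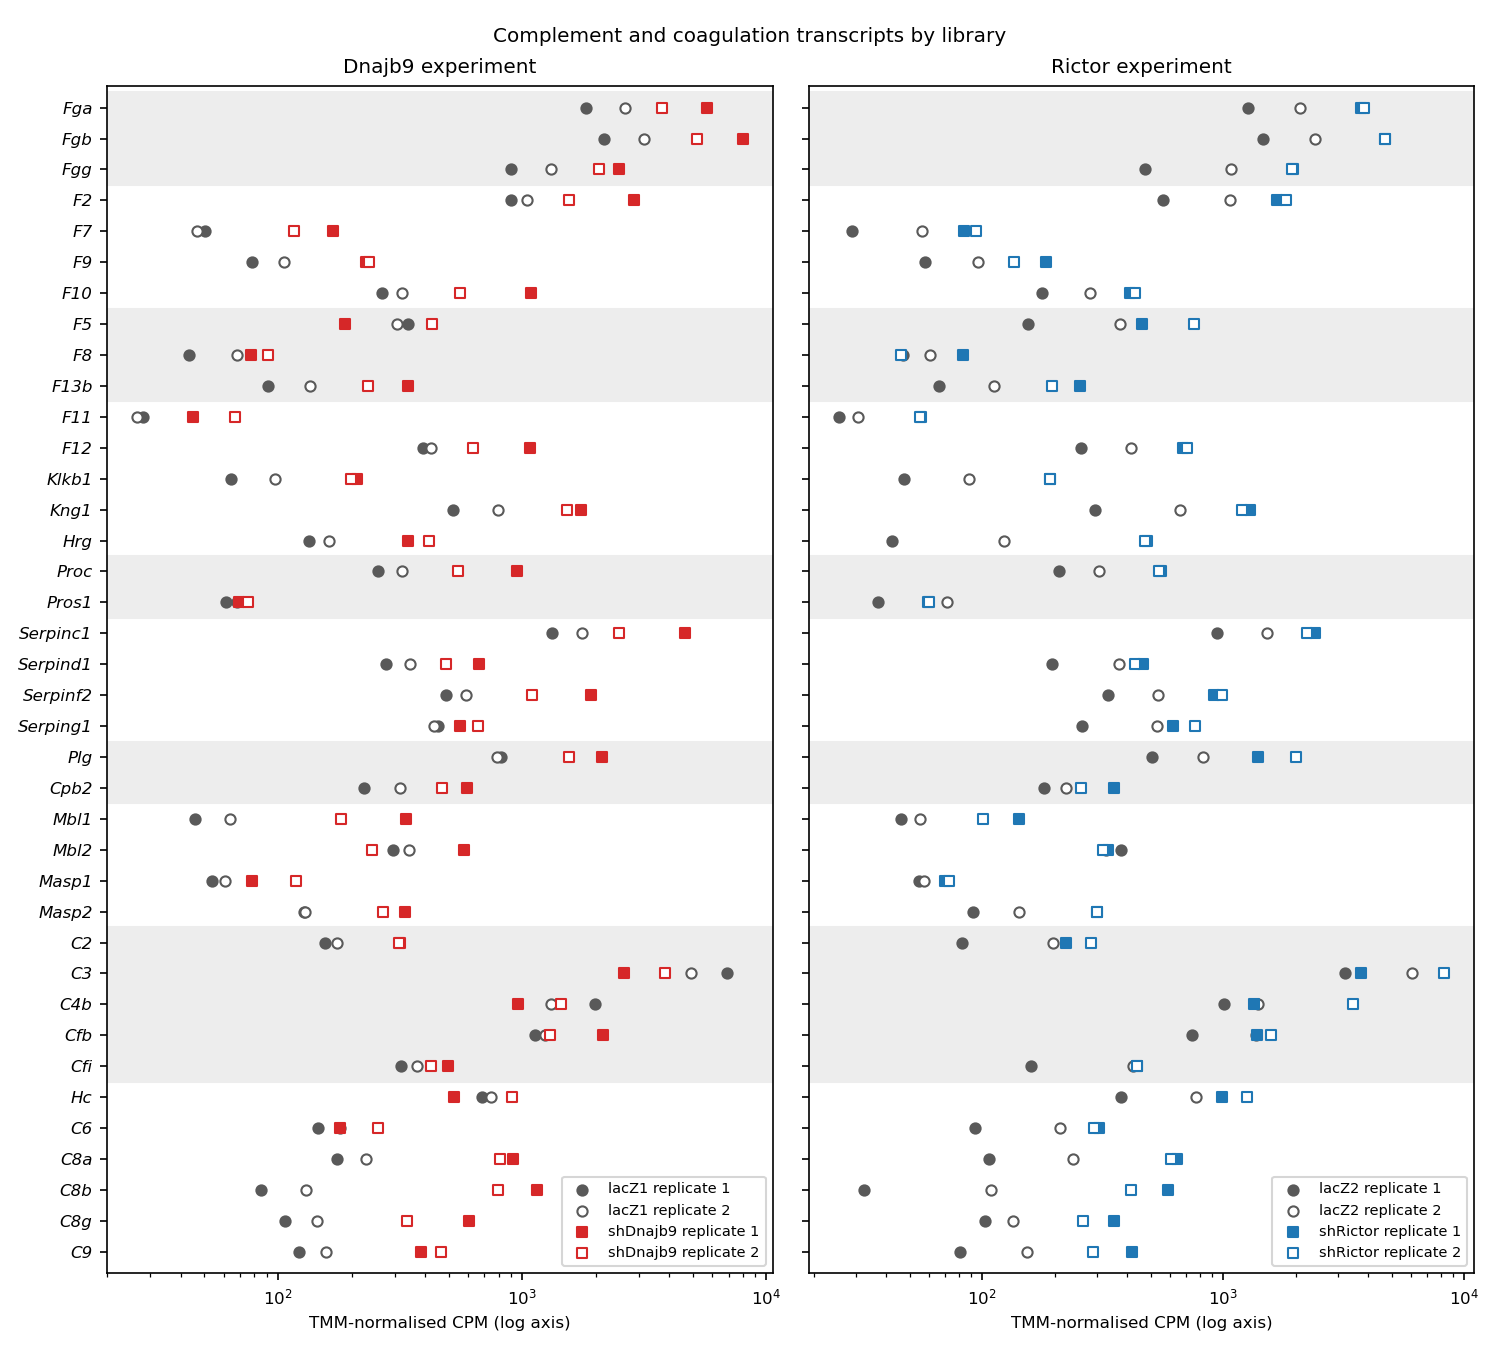
TMM-scaled CPM on a log axis in each of the 8 libraries, circles for the lacZ controls and squares for the hairpin groups, in the same order of genes. The filled circle of lacZ2 replicate 1 is the lowest point of its row for most genes, and the squares lie right of the circles except for C3 in the Dnajb9 experiment and where the groups overlap, as for Mbl2 and C4b.

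The 3 fibrinogen chains, which assemble into the soluble precursor of fibrin, were among the most abundant members per base of transcript, and none passed the test in either contrast. Fgb, the beta chain, stood at 2157 and 3160.1 CPM in the lacZ1 libraries, against 7989 and 5196 CPM with shDnajb9, with a log2 change of 1.31 (SE 0.45, adjusted p = 0.052). In the Rictor experiment it stood at 1465 and 2413 CPM in the lacZ2 libraries, against 4688 and 4693 CPM with shRictor, a log2 change of 1.27 (adjusted p = 0.07). The hairpin libraries lay above the controls for all 3 chains in both experiments. Fga was at 1.08 (adjusted p = 0.0872) and 1.18 (adjusted p = 0.0824), and Fgg by 1.04 (adjusted p = 0.0951) and 1.32 (adjusted p = 0.0533), in the Dnajb9 and the Rictor contrast. The genes lie side by side on chromosome 3 in the order Fgg, Fga, Fgb, with 11026 and 6513 bases between them.

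The zymogens F2, F7, F9 and F10, which need vitamin K for the carboxylation of their glutamates, differed in their calls: F7 and F9 rose in both contrasts, F10 with shDnajb9, and F2 in neither. F7, which binds tissue factor, stood at 50.4 and 46.6 CPM in the lacZ1 libraries, against 169 and 116 CPM with shDnajb9, a log2 change of 1.55 (SE 0.31, adjusted p = 0.00421). In the Rictor experiment F7 stood at 28.8 and 56.4 CPM in the lacZ2 libraries, against 84.2 and 94.0 CPM with shRictor, a log2 change of 1.06 (adjusted p = 0.0305). The libraries did not overlap, and F7 was 2.93-fold and 2.08-fold higher. F9, the zymogen lacking in haemophilia B, stood at 78.1 and 105 CPM in the lacZ1 libraries, against 228 and 236 CPM with shDnajb9, a log2 change of 1.34 (SE 0.30, adjusted p = 0.00822). Levels in the Rictor experiment lay at 57.9 and 96.5 CPM in the lacZ2 libraries, against 184 and 136 CPM with shRictor, a log2 change of 1.05 (adjusted p = 0.0296). F10, where both routes meet, stood at 266 and 322 CPM in the lacZ1 libraries, against 1091 and 554 CPM with shDnajb9, a log2 change of 1.49 (adjusted p = 0.0149). Its value in shDnajb9 replicate 1 was well above that in replicate 2, and with shRictor it was not called at 0.88 (adjusted p = 0.125). Prothrombin (F2) was not called at 1.19 (adjusted p = 0.061) and 1.10 (adjusted p = 0.0981). F7 and F10 are neighbours on chromosome 8, 1498 bases apart and on the same strand. With shDnajb9, F9 was at 1.11 (adjusted p = 0.125) without lacZ1 replicate 1, and F10 at 1.32 (adjusted p = 0.153) without that library, 1.62 (adjusted p = 0.0563) without lacZ1 replicate 2 and 0.92 (adjusted p = 0.142) without shDnajb9 replicate 1. With shRictor, F7 and F9 were at 0.66 (adjusted p = 0.231) and 0.73 (adjusted p = 0.223) without lacZ2 replicate 1, at 1.14 (adjusted p = 0.0793) and 0.82 (adjusted p = 0.195) without shRictor replicate 1, and F7 at 0.98 (adjusted p = 0.126) without shRictor replicate 2.

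Of the 2 cofactors and the carrier of factor XIII, only F13b was called. F13b encodes the subunit that carries the fibrin-crosslinking enzyme in plasma. It stood at 90.8 and 135 CPM in the lacZ1 libraries, against 341 and 234 CPM with shDnajb9, a log2 change of 1.35 (SE 0.34, adjusted p = 0.0136), and at 66.3 and 112 CPM in the lacZ2 libraries, against 254 and 194 CPM with shRictor, a log2 change of 1.33 (adjusted p = 0.0168). The change was 2.55-fold and 2.51-fold. F5, the cofactor of F10, was at -0.07 with shDnajb9, where its hairpin libraries lay on either side of the controls (at 342 and 306 CPM in the lacZ1 libraries, against 187 and 429 CPM with shDnajb9), and at 1.20 (adjusted p = 0.0992) with shRictor. F8, the cofactor of F9, was at 0.60 (adjusted p = 0.169) and 0.27 (adjusted p = 0.606). With shDnajb9, F13b was at 1.06 (adjusted p = 0.17) when lacZ1 replicate 1 was left out and at 1.06 (adjusted p = 0.0881) when shDnajb9 replicate 1 was. With shRictor it was at 1.00 (adjusted p = 0.143) without lacZ2 replicate 1 and at 1.13 (adjusted p = 0.111) without shRictor replicate 1.

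Of the 5 contact system genes, Klkb1, F11, Kng1 and Hrg rose in both contrasts. Hrg, the histidine-rich glycoprotein that binds plasminogen, heparin and contact proteins, had the largest shRictor change of any clotting gene among the members. It stood at 42.2 and 124 CPM in the lacZ2 libraries, against 484 and 473 CPM with shRictor, 5.76-fold higher (log2 change 2.53, SE 0.43, adjusted p = 0.00178). Both lacZ2 libraries were far below both hairpin libraries, although they also differed from each other. In the Dnajb9 experiment Hrg stood at 134 and 162 CPM in the lacZ1 libraries, against 340.0 and 416 CPM with shDnajb9, 2.55-fold higher (log2 change 1.35, adjusted p = 0.0323). Klkb1, plasma prekallikrein, stood at 64.0 and 96.9 CPM in the lacZ1 libraries, against 210.0 and 199.8 CPM with shDnajb9, a log2 change of 1.35 (SE 0.32, adjusted p = 0.00987), and at 47.6 and 88.3 CPM in the lacZ2 libraries, against 191 and 190.4 CPM with shRictor, a log2 change of 1.49 (adjusted p = 0.00655). F11, which activates F9, stood at 28.0 and 26.6 CPM in the lacZ1 libraries, against 45.1 and 66.9 CPM with shDnajb9, a log2 change of 1.04 (SE 0.25, adjusted p = 0.01). Levels in the Rictor experiment lay at 25.5 and 30.6 CPM in the lacZ2 libraries, against 55.6 and 55.5 CPM with shRictor, a log2 change of 0.98 (adjusted p = 0.0148). Its shRictor libraries nearly coincided. Kng1, the kininogen from which kallikrein releases bradykinin, rose by 1.31 (adjusted p = 0.0394) and 1.39 (adjusted p = 0.0382). F12 was not called, at 1.07 (adjusted p = 0.0509) and 1.04 (adjusted p = 0.0664). Of the 50-base stretches of Klkb1, 42.7% also occur in the overlapping gene model Gm45753, and 20.02% of those of Kng1 occur in Kng2, so their counts are uncertain. With shDnajb9, leaving out lacZ1 replicate 1 put Klkb1 at 1.05 (adjusted p = 0.149), F11 at 1.06 (adjusted p = 0.0887), Kng1 at 1.01 (adjusted p = 0.316) and Hrg at 1.20 (adjusted p = 0.229). F11, Kng1 and Hrg also lost the call without lacZ1 replicate 2 (adjusted p = 0.0667, 0.0744 and 0.0918), Kng1 and Hrg without shDnajb9 replicate 1 (0.146 and 0.0793), and F11 and Hrg without shDnajb9 replicate 2 (0.0501 and 0.0861). With shRictor, leaving out lacZ2 replicate 1 put Klkb1 at 1.11 (adjusted p = 0.0706), F11 at 0.86 (adjusted p = 0.131) and Kng1 at 0.92 (adjusted p = 0.191), and F11 and Kng1 also lost the call without either shRictor library (adjusted p from 0.0624 to 0.144). Kng1 further lost it in the Dnajb9 contrast without either shRictor library (adjusted p = 0.0546 and 0.0551), and in the Rictor contrast without either lacZ1 library (adjusted p = 0.0534 and 0.0534).

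Of the protein C pathway and the serpin inhibitors, Proc and Serpinf2 were called higher with shDnajb9, and none was called with shRictor. Proc, the zymogen of the anticoagulant protease protein C, stood at 256 and 321 CPM in the lacZ1 libraries, against 952 and 546 CPM with shDnajb9, a log2 change of 1.38 (SE 0.36, adjusted p = 0.0164), and with shRictor it missed the threshold at 1.09 (adjusted p = 0.0507). Serpinf2, the plasmin inhibitor, stood at 488 and 588 CPM in the lacZ1 libraries, against 1918 and 1096 CPM with shDnajb9, a log2 change of 1.49 (SE 0.39, adjusted p = 0.017), and was at 1.13 (adjusted p = 0.061) with shRictor. For both, shDnajb9 replicate 1 was far above replicate 2. Pros1, the cofactor of protein C, had among the smallest changes of all members, 0.16 and 0.14. Antithrombin (Serpinc1), of whose 50-base stretches 58.8% also occur in the overlapping Zbtb37, was at 1.21 (adjusted p = 0.0604) and 0.91 (adjusted p = 0.172). Heparin cofactor II (Serpind1) and the C1 inhibitor (Serping1) were not called either, at 0.88 and 0.46 with shDnajb9 and 0.67 and 0.81 with shRictor. Proc and Serpinf2 were at 1.19 (adjusted p = 0.175) and 1.32 (adjusted p = 0.172) without lacZ1 replicate 1, at 1.53 (adjusted p = 0.0578) and 1.62 (adjusted p = 0.0676) without lacZ1 replicate 2, and at 0.92 (adjusted p = 0.142) and 1.03 (adjusted p = 0.144) without shDnajb9 replicate 1.

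Of the genes of clot lysis, plasminogen (Plg) was called in both contrasts and Cpb2, which trims fibrin so that plasmin binds it less, with shDnajb9. Plg stood at 821 and 787 CPM in the lacZ1 libraries, against 2114 and 1557 CPM with shDnajb9, a log2 change of 1.19 (SE 0.39, adjusted p = 0.0433), and at 506 and 823 CPM in the lacZ2 libraries, against 1388 and 1998 CPM with shRictor, a log2 change of 1.35 (adjusted p = 0.0315). Cpb2 stood at 224 and 315 CPM in the lacZ1 libraries, against 596 and 470.3 CPM with shDnajb9, a log2 change of 0.98 (adjusted p = 0.0407), and was at 0.59 (adjusted p = 0.225) with shRictor. The hairpin libraries lay above the controls for both genes in both experiments. These calls lay close to the threshold. In the Dnajb9 contrast, Plg and Cpb2 had adjusted p of 0.234 and 0.343 without lacZ1 replicate 1, 0.178 and 0.0736 without lacZ1 replicate 2, 0.217 and 0.187 without shDnajb9 replicate 1, 0.0593 and 0.0544 without shRictor replicate 1, and 0.0575 and 0.0555 without shRictor replicate 2. In the Rictor contrast, Plg had an adjusted p of 0.148 without lacZ2 replicate 1, 0.0645 and 0.205 without shRictor replicates 1 and 2, and 0.0556 and 0.0568 without lacZ1 replicates 1 and 2.

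Among the 4 lectin pathway genes, Mbl1 and Masp2 were called in both contrasts, Masp1 with shDnajb9, and Mbl2 in neither. Mbl1 and Mbl2 encode the 2 mouse mannose-binding lectins, which recognise sugars on microbes. Mbl1 stood at 45.9 and 63.6 CPM in the lacZ1 libraries, against 334 and 181 CPM with shDnajb9, 4.71-fold higher (log2 change 2.23, SE 0.33, adjusted p = 0.00069). In the Rictor experiment it stood at 46.1 and 55.4 CPM in the lacZ2 libraries, against 142 and 101 CPM with shRictor, 2.40-fold higher (log2 change 1.26, adjusted p = 0.0174). Mbl2 stood at 295 and 343 CPM in the lacZ1 libraries, against 575 and 242 CPM with shDnajb9 (log2 change 0.36, adjusted p = 0.501) and at 378 and 326 CPM in the lacZ2 libraries, against 334 and 317 CPM with shRictor (log2 change -0.11, adjusted p = 0.873). Its libraries overlapped in both experiments, while those of Mbl1 did not. Masp2, the protease that cuts C4 and C2 once a lectin has bound, stood at 128 and 129 CPM in the lacZ1 libraries, against 332 and 269 CPM with shDnajb9, a log2 change of 1.23 (SE 0.29, adjusted p = 0.0104), and at 91.6 and 142 CPM in the lacZ2 libraries, against 299 and 299 CPM with shRictor, a log2 change of 1.36 (adjusted p = 0.00689). Masp1, which activates Masp2, stood at 53.5 and 60.8 CPM in the lacZ1 libraries, against 78.6 and 119 CPM with shDnajb9, a log2 change of 0.79 (adjusted p = 0.0333), and was at 0.35 (adjusted p = 0.371) with shRictor. Of the 50-base stretches of Masp2, 57.2% also occur in Tardbp, which overlaps it on the other strand, so its count is uncertain. The shDnajb9 calls of Masp1 and Masp2 did not hold without lacZ1 replicate 1 (adjusted p = 0.261 and 0.11) or lacZ1 replicate 2 (0.0973 and 0.0661), that of Masp1 also not without shDnajb9 replicate 2 (log2 change 0.46, adjusted p = 0.18) or either lacZ2 library (adjusted p = 0.0513 and 0.0512), and that of Masp2 also not without shDnajb9 replicate 1 (0.0551). The shRictor calls of Masp2 and Mbl1 did not hold without lacZ2 replicate 1 (adjusted p = 0.0633 and 0.125), and that of Mbl1 also not without shRictor replicate 1 (0.13).

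The upstream sequences of the 2 lectin genes are shown because Mbl1 was called in both contrasts and Mbl2 in neither. They are the 250 bases before the RefSeq start of each gene on GRCm38.p6, read 5′ to 3′ in the direction of the gene, and the capitals mark the longest run that both share, 13 bases, at -23 to -11 of Mbl1 and at -57 to -45 of Mbl2.
Mbl1 (chr14:41151206-41151455, plus strand): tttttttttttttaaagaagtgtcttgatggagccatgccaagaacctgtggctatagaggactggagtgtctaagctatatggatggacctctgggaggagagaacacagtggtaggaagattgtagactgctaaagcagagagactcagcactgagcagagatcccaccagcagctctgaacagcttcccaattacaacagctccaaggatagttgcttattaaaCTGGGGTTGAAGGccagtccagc
Mbl2 (chr19:30232678-30232927, plus strand): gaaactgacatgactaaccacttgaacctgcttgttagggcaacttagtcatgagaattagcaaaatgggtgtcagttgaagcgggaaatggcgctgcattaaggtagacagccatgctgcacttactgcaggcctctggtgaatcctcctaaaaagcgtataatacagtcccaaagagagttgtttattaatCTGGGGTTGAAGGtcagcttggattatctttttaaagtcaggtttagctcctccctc

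In the classical and alternative pathways no member was called in either contrast. C3, on which all pathways converge, was the clearest exception to the general direction with shDnajb9. It stood at 6909 and 4921 CPM in the lacZ1 libraries, against 2619.7 and 3836 CPM with shDnajb9, a log2 change of -0.87 (SE 0.52, adjusted p = 0.228), and at 3184 and 6079.9 CPM in the lacZ2 libraries, against 3712 and 8246 CPM with shRictor, a log2 change of 0.37 (adjusted p = 0.677). C4b, a C4 gene of the mouse, was at 1993 and 1312 CPM in the lacZ1 libraries, against 957 and 1440.2 CPM with shDnajb9 (log2 change -0.46, adjusted p = 0.493) and at 1008 and 1394 CPM in the lacZ2 libraries, against 1347 and 3452 CPM with shRictor (log2 change 1.00, adjusted p = 0.174). In shRictor, replicate 2 was far above replicate 1 for both genes. C2, Cfb and Cfi, the proteases that form or destroy the C3-cleaving enzymes, were at 0.93, 0.54 and 0.42 with shDnajb9 and at 0.86, 0.48 and 0.58 with shRictor. These 5 genes, C3 above all, made up 10507 and 8021 of the 24041 and 25453 CPM that all members summed to in lacZ1, and 6535 and 7311 of 47712 and 36142 in shDnajb9. In lacZ2 they made up 5174 and 9467 of 14167 and 24971 CPM, and in shRictor 7093 and 13998 of 34201 and 41747. Of their 50-base stretches, 35.2% of C4b occur in C4a, and 58.0% of C2 and 81.8% of Cfb in the overlapping readthrough gene Gm20547, so these counts are uncertain.

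Of the 6 terminal complement genes, C8b, C8a, C8g and C9 were called in both contrasts, and C8b had the largest change of all members in each. C8a, C8b and C8g encode the 3 chains of C8, which enters the membrane and lets C9 polymerise into the pore. C8b stood at 85.1 and 130.0 CPM in the lacZ1 libraries, against 1155 and 795 CPM with shDnajb9, 9.07-fold higher (log2 change 3.18, SE 0.52, adjusted p = 0.0014). In the Rictor experiment it stood at 32.2 and 109 CPM in the lacZ2 libraries, against 588 and 413 CPM with shRictor, 7.05-fold higher (log2 change 2.82, SE 0.51, adjusted p = 0.00277). Every hairpin library lay several-fold above both of its controls. C8a stood at 175 and 229 CPM in the lacZ1 libraries, against 915 and 812 CPM with shDnajb9, 4.28-fold higher (log2 change 2.10, SE 0.39, adjusted p = 0.0028), and at 107 and 237 CPM in the lacZ2 libraries, against 643 and 609 CPM with shRictor, 3.63-fold higher (log2 change 1.86, adjusted p = 0.00564). C8g stood at 107 and 145 CPM in the lacZ1 libraries, against 607 and 338 CPM with shDnajb9, 3.75-fold higher (log2 change 1.91, SE 0.35, adjusted p = 0.00271), and at 103 and 135 CPM in the lacZ2 libraries, against 351 and 263 CPM with shRictor, a log2 change of 1.37 (adjusted p = 0.0162). C9, the pore itself, stood at 122 and 157 CPM in the lacZ1 libraries, against 384 and 465 CPM with shDnajb9, 3.05-fold higher (log2 change 1.61, SE 0.36, adjusted p = 0.0072). Levels in the Rictor experiment lay at 80.7 and 154 CPM in the lacZ2 libraries, against 419 and 289 CPM with shRictor, a log2 change of 1.59 (adjusted p = 0.00826). The groups of these 4 genes did not overlap. Hc and C6, which act before C8, were not called. Hc, at 685 and 743 CPM in the lacZ1 libraries, against 525 and 911 CPM with shDnajb9, was at 0.01 (adjusted p = 0.992) and C6 at 0.43 (adjusted p = 0.397) with shDnajb9, and they were at 0.97 (adjusted p = 0.124) and 0.96 (adjusted p = 0.084) with shRictor. Without lacZ1 replicate 1 the shDnajb9 changes of C8a, C8g and C9 were 1.89 (adjusted p = 0.0535), 1.67 (adjusted p = 0.0508) and 1.41 (adjusted p = 0.103). The shRictor changes of C8g and C9 were 1.19 (adjusted p = 0.113) and 1.20 (adjusted p = 0.0744) without lacZ2 replicate 1 and 1.15 (adjusted p = 0.113) and 1.31 (adjusted p = 0.0736) without shRictor replicate 1.

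C8b (chromosome 4, 104766317 to 104804548, plus strand) and C8a (chromosome 4, 104815679 to 104876398, minus strand, build mm10) lie with their 3′ ends towards each other, 11130 bases apart. The 250 bases before the RefSeq starts of genes with large changes in both contrasts are shown, C8b and C8a for the size of their change, and C9, Hrg and F13b because a motif known from liver promoters was found there. They are from GRCm38.p6, 5′ to 3′ in the direction of the gene, and the capitals mark the motif matches.
C8b (chr4:104766067-104766316, plus strand): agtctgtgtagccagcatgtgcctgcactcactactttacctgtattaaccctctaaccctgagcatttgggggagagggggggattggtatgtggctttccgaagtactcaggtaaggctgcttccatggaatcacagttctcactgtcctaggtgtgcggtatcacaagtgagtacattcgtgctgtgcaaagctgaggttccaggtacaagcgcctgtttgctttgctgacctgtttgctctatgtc
C8a (chr4:104876399-104876648, minus strand): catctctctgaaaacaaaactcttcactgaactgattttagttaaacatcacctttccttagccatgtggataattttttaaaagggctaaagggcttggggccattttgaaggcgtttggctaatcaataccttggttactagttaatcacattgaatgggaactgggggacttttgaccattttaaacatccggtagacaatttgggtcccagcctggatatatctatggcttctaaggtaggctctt
C9 (chr15:6445096-6445345, plus strand): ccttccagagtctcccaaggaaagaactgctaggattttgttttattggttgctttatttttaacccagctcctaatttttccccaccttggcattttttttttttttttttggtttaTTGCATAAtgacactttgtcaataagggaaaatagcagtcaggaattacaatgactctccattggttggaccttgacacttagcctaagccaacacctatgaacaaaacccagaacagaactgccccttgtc
Hrg (chr16:22950822-22951071, plus strand): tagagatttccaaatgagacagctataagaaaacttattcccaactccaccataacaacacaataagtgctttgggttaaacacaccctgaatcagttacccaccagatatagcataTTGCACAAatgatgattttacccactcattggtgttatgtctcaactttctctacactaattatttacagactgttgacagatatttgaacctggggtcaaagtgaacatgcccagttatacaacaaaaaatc
F13b (chr1:139501457-139501706, plus strand): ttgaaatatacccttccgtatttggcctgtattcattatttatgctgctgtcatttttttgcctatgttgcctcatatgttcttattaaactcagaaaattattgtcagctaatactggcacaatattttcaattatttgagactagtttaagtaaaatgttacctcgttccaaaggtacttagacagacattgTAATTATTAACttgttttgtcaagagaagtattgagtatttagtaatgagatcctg
In C9 the capitals, at -132 to -125, match both the C/EBP motif TTGCNNAA and the PAR bZIP motif TTATGNAA on opposite strands. In Hrg the C/EBP motif lies at -133 to -126, and in F13b the HNF1 motif, read on the other strand, at -56 to -46. Searched on both strands of the 29 member promoters that RefSeq lists, the C/EBP motif occurred in 8 (27.6%, against 9.56% of 32851 promoters of the same length), the HNF1 motif in 2 (6.90% against 0.134%) and the PAR bZIP motif in 1 (3.45% against 3.07%). The interleukin-6 element CTGGGAA occurred in 4 (13.8% against 9.10%), the FOXA motif TGTTTAC in 2 (6.90% against 3.17%) and the HNF4 motif CAAAGTCCA in 0 (against 0.384%). The 8 with the C/EBP motif were Fga, Fgb, F9, F11, Klkb1, Hrg, C3 and C9, of which Fga, Fgb and C3 were called in neither contrast. Hc, which shares the HNF1 motif with F13b, was called in neither as well. No motif match was found in the windows of C8a and C8b, nor in those of Mbl1, Mbl2 and C8g, the last not shown.

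Of 10 ratios between partners of a complex, family or pathway, 4 lay higher in all hairpin libraries than in all control libraries. These ratios are of counts per base of transcript within a library, so the scaling of libraries does not enter them. C8b over C8a was 0.787 and 0.917 in the lacZ1 libraries against 2.04 and 1.58 with shDnajb9, and 0.486 and 0.744 in the lacZ2 libraries against 1.48 and 1.09 with shRictor. Both hairpin groups lay above both control groups without overlap. Mbl1 over Mbl2 was 0.108 and 0.129 in the lacZ1 libraries against 0.404 and 0.521 with shDnajb9, and 0.0849 and 0.118 in the lacZ2 libraries against 0.297 and 0.222 with shRictor, again without overlap. C9 over C6 was 1.18 and 1.23 in the lacZ1 libraries against 3.00 and 2.55 with shDnajb9, and 1.22 and 1.02 in the lacZ2 libraries against 1.93 and 1.40 with shRictor. By contrast Fgb over Fga, 2 chains of one protein, stayed between 0.783 and 0.948 in all 8 libraries, with all hairpin libraries above all controls. Of the others, Masp2 over Masp1 and Hrg over Kng1 overlapped in the Dnajb9 experiment and lay higher with shRictor, at 7.49 and 7.13 against 2.92 and 4.29, and at 0.394 and 0.415 against 0.151 and 0.197. C3 over Cfb lay lower with shDnajb9, at 0.651 and 1.57 against 3.25 and 2.11, and overlapped in the Rictor experiment. C8g over C8a overlapped in the Dnajb9 experiment, at 1.93 and 1.99 against 2.09 and 1.31, and lay lower with shRictor, at 1.72 and 1.36 against 3.01 and 1.79. F10 over F7 overlapped in the Dnajb9 experiment and lay slightly lower with shRictor, at 3.61 and 3.40 against 4.57 and 3.67. Fgg over Fga overlapped in both experiments. The ratios are given as a description, without a test, and 4 of 10 is not a rate over gene pairs in general. For C8b, Mbl1 and C9 the ratios restate that the first gene of each pair changed more than the second.

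**Figure D3:**
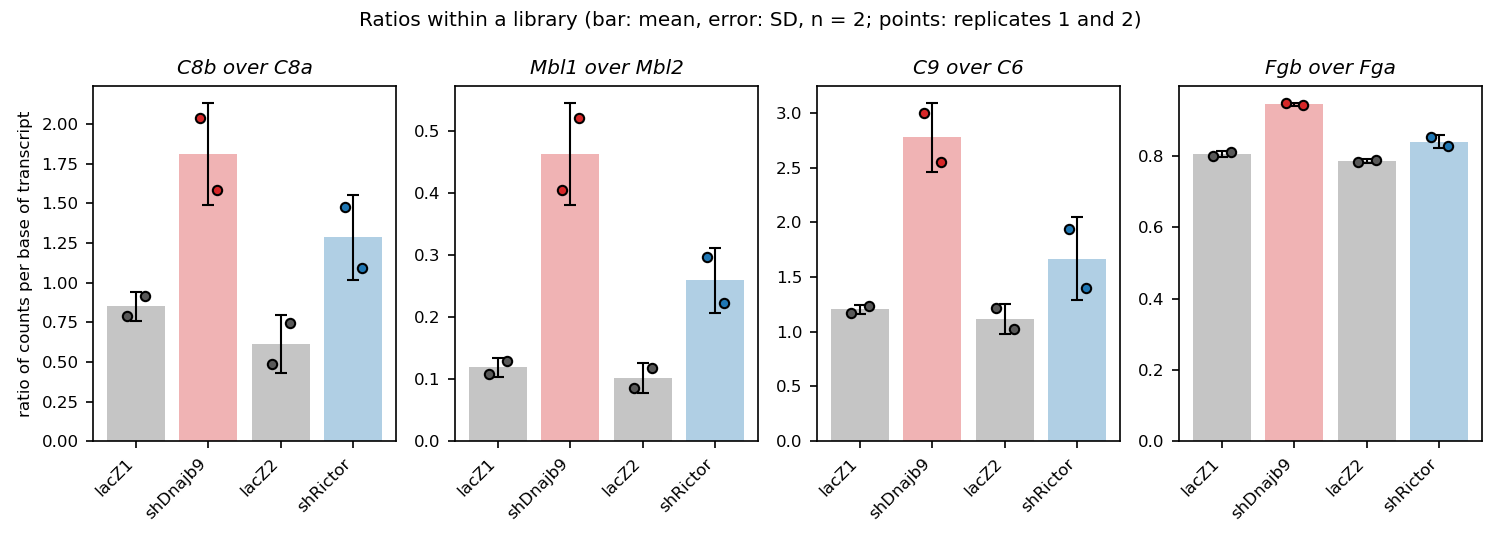
Ratio of counts per base of transcript within each library for 4 pairs of genes, with bars for the mean and SD of 2 libraries and points for replicates 1 and 2, on axes that start at 0. In the first 3 panels the hairpin libraries stand above the controls. For C9 over C6 the gap is small with shRictor, with replicate 2 at 1.40 and lacZ2 replicate 1 at 1.22. Fgb over Fga moves only from 0.783 to 0.948.

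Per base of transcript (FPKM), the members spanned a wide range of levels, and the order shifted with the hairpins. C3 ranked first in lacZ1 at 1152 ± 274 FPKM and in lacZ2 at 902 ± 399 (SD, n = 2), before Fga, Fgb, Fgg and F2. In shDnajb9 C3 ranked 10 at 628 ± 167, behind Fga at 1829 ± 541, and in shRictor it ranked 3 at 1164 ± 624. In the control livers the spread of neighbours in this order overlapped, so C3 and Fga, or Fgb and Fgg, could not be ranked against each other, and by coding length Fgb came first and C3 next. C8b moved from rank 27 at 48.0 ± 14.2 FPKM in lacZ1 to rank 13 at 435 ± 114 in shDnajb9, and from 31 at 31.6 ± 24.3 in lacZ2 to 18 at 223 ± 55.2 in shRictor. F8 was the lowest of the 38 in every group, from 5.49 ± 1.00 in lacZ2 to 8.61 ± 0.931 in shDnajb9.

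The 2 hairpin contrasts share no library, and across the 38 genes their log2 fold changes went together (Pearson's r = 0.68, Spearman's rho = 0.72, genes of 1 set and not independent replicates). The test of the difference between the contrasts called none of the 38 (0.00726% of all genes), with adjusted p from 0.46 to 0.996, 1 member at an unadjusted p under 0.05 and 0 members with DESeq2. That member was C4b, at 1.46 higher with shRictor (95% interval 0.00 to 2.92). F5 differed by 1.27 (-0.16 to 2.70), Hrg by 1.17 (-0.08 to 2.42) and Mbl1 by -0.97 (-1.95 to 0.01). The median width of these intervals was 2.26 on the log2 scale, so a difference of the size of the changes themselves could not be told from none. Hence no member was shown to respond to 1 hairpin only.

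**Figure D4:**
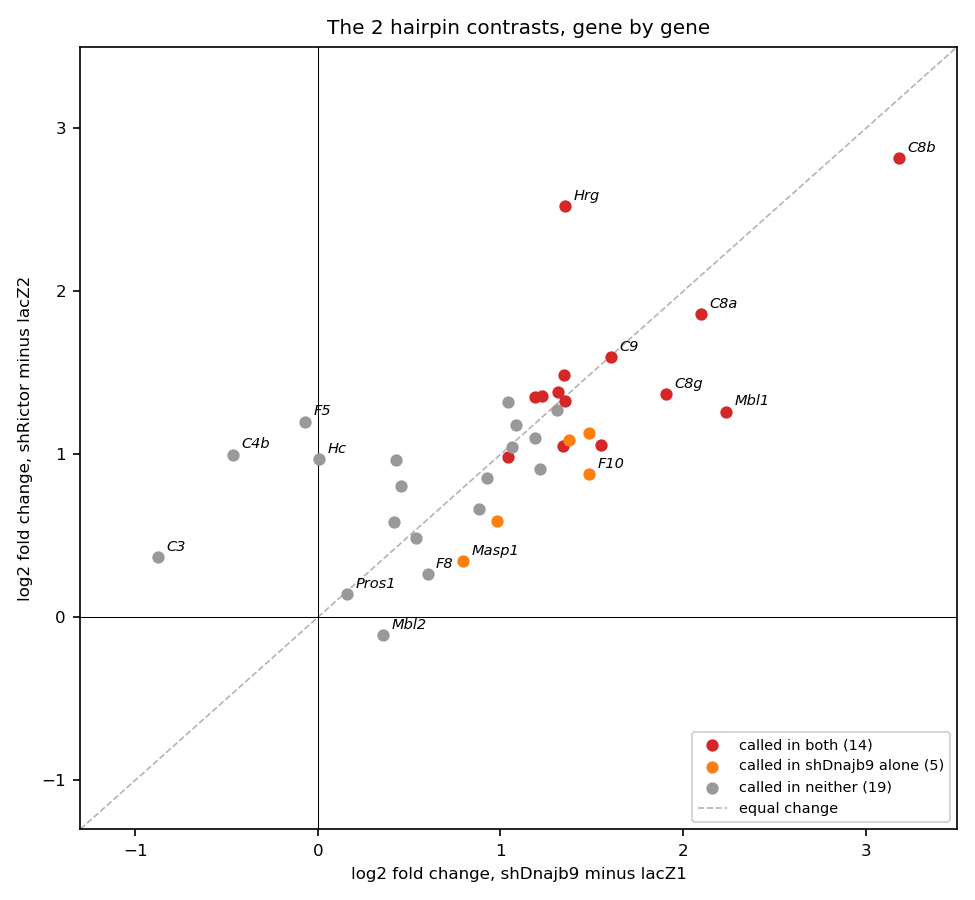
Log2 fold change of each gene in shDnajb9 minus lacZ1 (x axis) against shRictor minus lacZ2 (y axis), coloured by the contrasts in which it was called, with a dashed line of equal change. The 14 genes called in both lie in the upper right, C8b farthest at 3.18 and 2.82, Hrg above the line, Mbl1 below it, and C3, C4b and F5 left of 0.

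Between the control groups, lacZ2 against lacZ1, no member was called (0% of all genes; DESeq2 called 0 members), no member had an unadjusted p under 0.05, and the adjusted p was 0.9999 for each. Their log2 fold changes were nonetheless negative for 36 of 38, with a median of -0.25 beside -0.01 over all genes. For 36 members the control libraries overlapped, and for 2 both lacZ2 libraries were lower (9.97% of all genes were). The low value lay in 1 library: lacZ2 replicate 1 was below replicate 2 for 37 of 38 members, with a median log2 difference of -0.83, and without it the median between the controls was 0.08. Age and experiment cannot be told apart in this comparison. Without lacZ2 replicate 1 the median member change with shRictor was 0.73 in place of 1.06.

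Several of the long transcripts had small or negative changes in the Dnajb9 experiment. The 7 members with transcripts of 5000 bases or more (F5, F8, Klkb1, Masp1, C3, C4b and Hc) had a median log2 fold change of 0.01 with shDnajb9, against 1.21 for the 31 shorter ones. With shRictor the medians were 0.97 and 1.09. Of the 7 long ones, Klkb1 and Masp1 were nonetheless called higher with shDnajb9, at 1.35 and 0.79. Serpinc1, just under the limit at 4970 bases, was at 1.21, so the median of the long ones depends on the limit chosen. Across the 38 genes the shDnajb9 change went down with log2 transcript length (Spearman's rho = -0.39), and so did the difference between its replicates (-0.50), while with shRictor these were -0.16 for the change and -0.34 for the difference between replicates. After a correction for transcript length and GC content the shDnajb9 medians were 0.19 and 1.14, rho was -0.20, and C3, C4b and Hc were at -0.39, 0.16 and 0.10. With this correction 23 members were called in each contrast, where 2004 and 1692 of 13767 genes were called higher. The part of length in the low values of C3 and C4b was not tested.

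Other genes of complement were counted from lists. Of all genes tested, 11.6% were called higher and 12.6% lower with shDnajb9, and 7.31% and 10.9% with shRictor. Counts such as 1 of 15 or 3 of 18 called lower lie near those shares. Of 18 other complement components, 15 could be tested, and 6 rose and 0 fell with shDnajb9, with a median of 0.76. Among them were the lectin Colec11 at 1.35 (adjusted p = 0.00271) and Cfhr2, of the factor H family, at 1.79 (adjusted p = 0.00883), of whose 50-base stretches 35.3% occur in other genes. With shRictor 4 rose and 1 fell, with a median of 0.51. C4a, which shares 35.2% of its stretches with C4b, was at 1.31 (adjusted p = 0.0133), while C1qa, a macrophage product, fell by 0.86 (adjusted p = 0.0253). None of the 15 was called with shDnajb9 without lacZ1 replicate 1. Without lacZ2 replicate 1 and without shRictor replicate 1, 1 and 0 were called higher with shRictor and 0 lower, and C1qa was also not called without lacZ2 replicate 2 or shRictor replicate 2. With libraries scaled by total gene count, the shRictor counts were 2 higher and 4 lower, and those of the regulators and receptors with shDnajb9, given next, were 1 and 5. Of 18 regulators and receptors, 5 rose and 3 fell with shDnajb9, and 3 rose and 4 fell with shRictor. The risers included Cd59a, a membrane protein that blocks C9, at 1.84 (adjusted p = 0.00112) with shDnajb9, and Cpn2, a carboxypeptidase N subunit that supports the enzyme inactivating C3a and C5a, at 2.10 (adjusted p = 0.000769) with shRictor. The fallers were leukocyte receptors. C5ar1, the receptor for C5a, fell by 2.26 (adjusted p = 0.000383) and 1.99 (adjusted p = 0.000569), and the integrin chain Itgb2 by 1.65 (adjusted p = 0.00278) and 1.54 (adjusted p = 0.00405). The number of regulators and receptors called higher with shDnajb9 was 1 without lacZ1 replicate 1, lacZ1 replicate 2, shDnajb9 replicate 1 or shRictor replicate 1, and 2 or 3 without shRictor replicate 2 or shDnajb9 replicate 2. With shRictor 1 was called higher without lacZ2 replicate 1 or shRictor replicate 1, 2 were without shRictor replicate 2, lacZ1 replicate 1 or lacZ1 replicate 2, and 2 were called lower without either shRictor library.

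Other genes of clotting and fibrinolysis were split. Of all genes tested, 11.6% were called higher and 12.6% lower with shDnajb9, and 7.31% and 10.9% with shRictor. The count of 3 of 25 called higher with shRictor lies near that share. Of 25 tested, 6 rose and 8 fell with shDnajb9, with a median of -0.27, and 3 rose and 11 fell with shRictor, with a median of -0.39. Anxa2, a cell surface receptor for plasminogen, fell by 1.98 and 2.46 (adjusted p = 0.000295 and 0.000119), and Thbs1, a platelet and matrix glycoprotein, by 2.24 with shDnajb9 (adjusted p = 0.000249). Plat, the tissue plasminogen activator, fell by 4.54 with shRictor (adjusted p = 0.000348). Among the risers were Serpine2 at 2.15 (adjusted p = 0.00136), F3, tissue factor, at 1.89 (adjusted p = 0.00394), and Proz, a vitamin K-dependent anticoagulant, at 1.46 (adjusted p = 0.00596) with shDnajb9 and 1.42 (adjusted p = 0.00781) with shRictor. With shDnajb9, 2 were called higher and 6 lower without lacZ1 replicate 1. With shRictor it was 0 and 6 without lacZ2 replicate 1, 1 and 5 without shRictor replicate 1, 3 and 5 without shRictor replicate 2, and 5 and 8 without lacZ2 replicate 2. Proz had an adjusted p of 0.0885 with shDnajb9 when lacZ1 replicate 1 was left out, and of 0.0646 with shRictor when lacZ2 replicate 1 was.

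The vitamin K cycle and the export of clotting factors were tested as 11 genes. In shDnajb9, 3 rose and 1 fell, where 11.6% and 12.6% of all genes did. With shRictor it was 1 and 1, near the shares of 7.31% and 10.9% over all genes. Vkorc1, which regenerates vitamin K and is the target of warfarin, was at 1.67 (adjusted p = 0.00461) with shDnajb9 and 0.87 (adjusted p = 0.0896) with shRictor, but 50.5% of its 50-base stretches also occur in the overlapping Gm21974, so its count is uncertain. Lman1, the receptor that ferries F5 and F8 out of the endoplasmic reticulum, was at 1.27 (adjusted p = 0.012) and 0.89 (adjusted p = 0.063). Nqo1, a quinone reductase, fell by 2.46 (adjusted p = 0.000793) and 2.61 (adjusted p = 0.000582). Without lacZ1 replicate 1, lacZ1 replicate 2 or shDnajb9 replicate 1, 1 of the 11 was called higher with shDnajb9, without shDnajb9 replicate 2 it was 5, and the call of Lman1 was lost in the first 3 cases (adjusted p = 0.124, 0.0637 and 0.0725). The 1 gene called higher with shRictor was Furin, a protease that trims proproteins, at 1.05 (adjusted p = 0.0485), and none was called higher without lacZ1 replicate 1, lacZ1 replicate 2, lacZ2 replicate 1 or either shRictor library.

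Many clotting and complement genes belong to the acute phase response, in which the liver raises plasma proteins under interleukin-6. The 26 acute phase genes went both ways: 5 rose and 8 fell with shDnajb9 (median 0.03), and 5 rose and 4 fell with shRictor (median 0.18). Of all genes, 11.6% rose and 12.6% fell with shDnajb9, and 7.31% and 10.9% with shRictor, so the 4 that fell lie near that share. Crp rose by 2.31 (adjusted p = 0.000379) and 1.79 (adjusted p = 0.00186), and Saa1 by 1.54 (adjusted p = 0.00586) and 1.33 (adjusted p = 0.014). Lcn2 fell by 2.50 and 2.67 (adjusted p = 0.00106 and 0.000719), and Il1rn by 2.30 and 2.12 (adjusted p = 0.000249 and 0.000349). Of 24 signals and transcription factors of plasma protein genes, the same 3 rose in both contrasts and 0 fell, where 11.6% and 7.31% of all genes rose, so the count is near the share over all genes with shDnajb9. These were Dbp, a PAR bZIP factor of the circadian clock that shares 27.5% of its 50-base stretches with the overlapping Sphk2, at 1.35 (adjusted p = 0.00204) and 1.60 (adjusted p = 0.000737), Cebpa at 1.35 (adjusted p = 0.0183) and 1.16 (adjusted p = 0.0393), and the bile acid receptor Nr1h4 at 0.79 (adjusted p = 0.0415) and 1.06 (adjusted p = 0.0142). Dbp kept its call whichever single library was left out. Cebpa and Nr1h4 did not: without lacZ1 replicate 1 their adjusted p with shDnajb9 was 0.166 and 0.326, and without lacZ2 replicate 1 their adjusted p with shRictor was 0.112 and 0.0832. The acute phase genes called higher with shDnajb9 were 1 without lacZ1 replicate 1 and 2 without shDnajb9 replicate 2, and those called lower 4 without lacZ1 replicate 2 or shDnajb9 replicate 1. With shRictor 1 was called higher without lacZ2 replicate 1 or shRictor replicate 2, and 3 without shRictor replicate 1. With libraries scaled by total gene count, the counts of higher and lower were 2 and 8, then 1 and 5, for the acute phase genes, 2 and 3, then 1 and 1, for the signals and transcription factors, 4 and 11, then 2 and 12, for the other clotting genes, and 2 and 3, then 0 and 1, for the vitamin K list. Saa1 had an adjusted p of 0.0921 without lacZ1 replicate 1, and of 0.147 and 0.129 without lacZ2 replicate 1 and shRictor replicate 2.

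The members can be set beside 22 other plasma proteins of hepatocytes and the hepatocyte markers, which share 3 genes. Of the 22, 9 rose and 0 fell with shDnajb9 (median 0.86), and 10 rose and 1 fell with shRictor (median 1.11), against 1.14 and 1.06 for the members. Of the 13 hepatocyte markers, 9 rose and 0 fell (median 1.29) and 6 rose and 0 fell (median 1.43). Over all genes, 11.6% rose with shDnajb9 and 7.31% with shRictor. Albumin itself was not called, at -0.36 (adjusted p = 0.659) and 0.67 (adjusted p = 0.466). As a share of gene counts the members took 2.77% and 2.73% in lacZ1 and 3.54% and 3.30% in shDnajb9, and 1.81% and 2.82% in lacZ2 and 3.14% and 3.75% in shRictor. The hepatocyte markers took 4.68% and 5.89%, 5.74% and 5.93%, 2.84% and 4.92%, and 5.99% and 6.36% in the same order. By their median changes after TMM scaling, other hepatocyte transcripts rose along with the members in both contrasts. As shares of gene counts, the hepatocyte markers rose without overlap with shRictor only. In the Dnajb9 experiment their libraries overlapped. So did those of the 22 other plasma proteins, where the controls held 7.60% and 9.15% and the hairpin libraries 9.03% and 8.79%. With shRictor the 22 held 8.57% and 9.04%, against 5.15% and 8.22% for lacZ2. The part of other hepatocyte transcripts in the result was not tested. In whole liver, fewer or more cells of a type and less or more RNA per cell cannot be told apart. Without lacZ1 replicate 1, lacZ1 replicate 2 or shDnajb9 replicate 1, 2, 3 and 4 of the 22 and 1, 1 and 2 of the 13 were called higher with shDnajb9. With shRictor it was 4 and 3 without lacZ2 replicate 1, 3 and 5 without shRictor replicate 1, 5 and 3 without shRictor replicate 2, and 6 and 5 without either lacZ1 library.

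**Figure D5:**
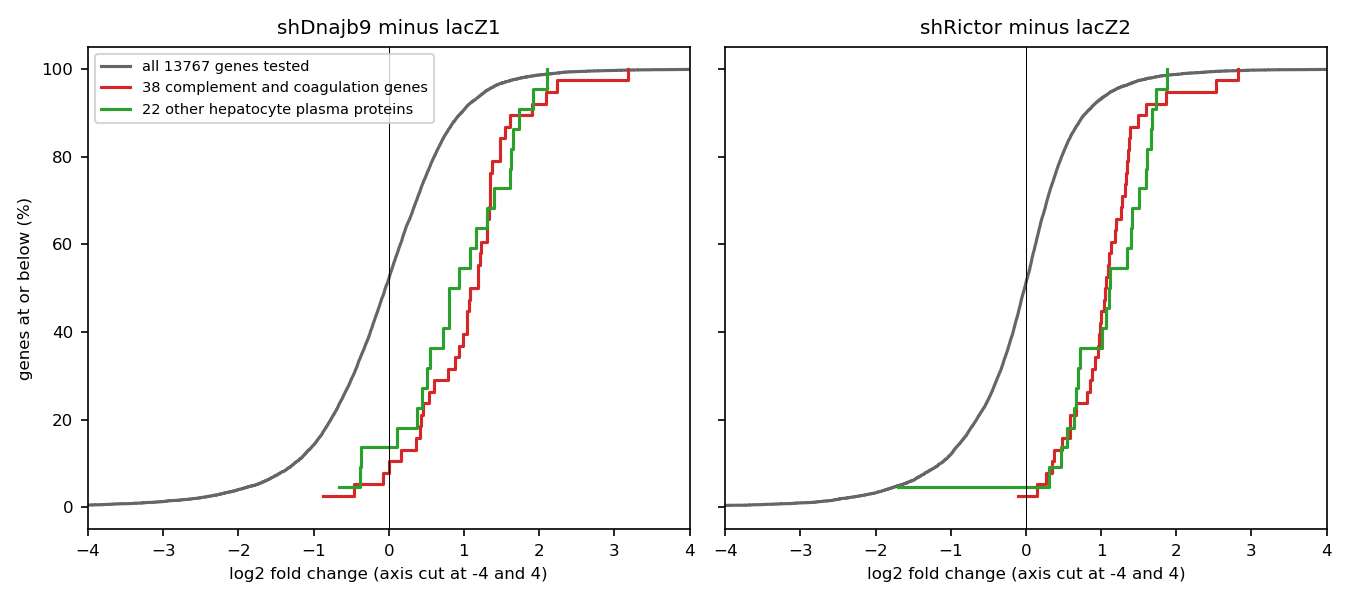
Share of genes (y axis, %) with a log2 fold change at or below the value on the x axis, for all 13767 genes tested, the 38 clotting and complement genes and 22 other plasma proteins of hepatocytes, in shDnajb9 minus lacZ1 (left) and shRictor minus lacZ2 (right). Both plasma protein curves lie to the right of the curve of all genes, the members at medians of 1.14 and 1.06.

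Markers of other cells in the liver were called lower more often than higher. Over all genes tested, 12.6% were called lower with shDnajb9 and 10.9% with shRictor, and counts such as 2 of 11 or 1 of 8 lie near those shares. Of 12 markers of sinusoidal endothelium, the source of F8, 1 rose and 0 fell with shDnajb9 and none was called with shRictor. Of 11 Kupffer cell markers tested 0 rose and 2 fell, then 0 and 4. All 12 counted, tested or not, summed to between 1949.5 and 2314 CPM in the lacZ libraries. Their sum was between 1758 and 1917 in shDnajb9 and between 1159 and 1326 in shRictor. The 12 stellate cell markers gave 2 higher and 5 lower, then 1 and 2, and the 6 of cholangiocytes 0 and 2, then 0 and 0. Of 5 neutrophil markers tested, 0 rose and 4 fell with shDnajb9, and 0 rose and 1 fell with shRictor. All 8 neutrophil markers counted, tested or not, summed to between 4.06 and 25.7 CPM in the lacZ libraries. In the hairpin libraries they summed to between 1.03 and 4.79, with Mpo at 0 in both shDnajb9 libraries and in shRictor replicate 1. T and NK cell markers gave 0 higher and 1 lower of 8, then 0 and 2, and erythroid markers 2 higher and 2 lower of 5 in both contrasts. The summed level of all 6 erythroid markers counted, tested or not, lay higher without overlap in both experiments. It was 71.9 and 64.0 CPM in the lacZ1 libraries against 603 and 269.9 with shDnajb9. In the Rictor experiment it was 80.5 and 59.4 CPM in the lacZ2 libraries against 168 and 139 with shRictor. No marker of platelets, which store some clotting proteins, or of B cells was called in either contrast, and their sums stayed at or below 20.1 CPM in every library. Without lacZ1 replicate 1 or shDnajb9 replicate 1 none of the Kupffer, cholangiocyte or neutrophil markers was called with shDnajb9, and without shRictor replicate 2 no Kupffer or neutrophil marker was with shRictor. The part of these cells in the values of the members was not tested.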

How the data were processed

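Total RNA of mouse liver was sequenced, giving 2 libraries for each of the 4 groups. The authors deposited raw read counts per gene for each library; per the submitters' processing notes, cutadapt, HTSeq and the build mm10 were used, and the aligner, the annotation and the strand setting are not given in the sources used here. The genes and lists were chosen with earlier results of these data known. The entries for unassigned reads were left out, and 27 entries whose names had been turned into dates, 0.112% of the gene entries, were kept. Counts were scaled by TMM and tested with edgeR 4.0.16 (R 4.3.3, robust quasi-likelihood, 4 group means, filterByExpr with a minimum count of 10), which kept 13767 genes and left out 10295, with 4 residual degrees of freedom. Contrasts were shDnajb9 minus lacZ1, shRictor minus lacZ2, their difference and lacZ2 minus lacZ1. Adjusted p-values are Benjamini-Hochberg values over all genes tested, and SE is the size of the log2 fold change divided by the root of F. On simulated counts for the Dnajb9 contrast (13767 genes), 94% of 4-fold and 27% of 2-fold changes were called. The simulation changed 100 genes at each size and gave every gene the same coefficient of variation, 0.209. In the data 3325 genes were called in this contrast. The median SE was 0.371 for the members and 0.293 over all genes, so the simulated rates do not carry over to the members. Alternatives were DESeq2 1.42.0, limma-voom 3.58.1, other scalings and filters, a length and GC correction and each library left out. All 38 members are accounted for by role; called ones are given with values in every library, at most 3 per role and contrast, and genes of the other lists by counts and up to 3 called genes. Lengths and positions are from GENCODE M21 (mm10), and promoters from RefSeq on GRCm38.p6, which held 29 of the 38. Gene counts per library were 6426164 to 11383532, and the number of libraries, 2 for each group, limits precision more than counting error does. A few genes of the other lists are counted there but not reported here by name.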

Additional observations from a re-analysis of the deposited data

Results flagged for a closer look

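The tables also count reads without a unique alignment, which enter no gene value. Their share of all counts was between 22.88% and 24.88% in the 4 lacZ libraries. In both hairpin groups it was above that range, from 41.3% in the lower of the shDnajb9 libraries and from 26.72% in the lower of the shRictor libraries. Because these reads are not assigned to genes, the part of this difference in the values of the clotting and complement genes was not tested.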

How the results depend on the processing

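No clotting or complement gene was called lower, and no called gene changed sign, under any of the alternatives run. With shRictor, 14 genes were called in the main analysis, against 23 without a filter on low counts, 23 after the length and GC correction, 26 with DESeq2, 6 in a test against a 1.5-fold change and 9 without shDnajb9 replicate 1 and lacZ2 replicate 1 together. Over all genes, 1006 were called higher with shRictor in the main analysis and 1287 without the filter. It was 1692 after the correction, 1140 with DESeq2 and 375 in the 1.5-fold test. With shDnajb9, 19 were called, against 8 in the test against a 1.5-fold change, where 1597 and 543 of all genes were called higher. With each library left out in turn, the count ranged from 3 to 26 with shDnajb9 and from 3 to 28 with shRictor. Replicate numbers did not pair the samples: the correlation of deviations was -0.28 between lacZ1 and shDnajb9 and -0.03 between lacZ2 and shRictor. With the replicate block, 15 and 11 genes were called, 0 in the difference between the contrasts and 0 between the controls. Of all genes, 995 and 672 were called higher with that block. A block with crossed numbers in the Dnajb9 experiment, chosen after seeing the data, gave 27 and 27, beside 2119 and 1426 of all genes. The cause of these shifts was not tested. With 2 libraries a group, 2-fold changes were seldom called in the simulated counts, a rate that does not carry over to these genes.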
